A study of Homo sapiens with 8 samples.

Results

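The promoters described here belong to the nuclear genes of the mitochondrial respiratory chain and ATP synthase, in HEK293T cells. This embryonic kidney line carries the SV40 large T antigen. ATAC-seq marks accessible DNA by letting the Tn5 transposase insert sequencing adapters there. Of the 8 libraries, 4 came from cells given an H2A(E92K) lentivector, here E92K, and 4 from cells given an H2A lentivector, here H2A. In E92K a lysine stands in place of a glutamate in the nucleosome's acidic patch, a docking surface for chromatin proteins. The labels give no treatment and do not say how much of the histone came from the vector, whether the cells were 1 clone or whether replicates were separate cultures, so p-values reflect spread among these libraries alone. Members were chosen by gene symbol among 19609 protein-coding genes: those starting NDUFA, NDUFB, NDUFC, NDUFS, NDUFV, UQCR, COX followed by a number, ATP5F, ATP5M or ATP5P, and SDHA to SDHD. This gave 106 genes. Besides 77 subunits, the symbols bring in 17 assembly factors, which build complex I or complex IV without staying in it, 7 tissue-restricted isoforms, 2 retrocopies, 2 readthrough genes and COX7A2L, a factor that joins complexes into supercomplexes. The subunits were 37 of complex I, 4 of complex II, 8 of complex III, 11 of complex IV (NDUFA4 counted there) and 17 of complex V.

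Respiratory complexes I, III and IV pump protons across the inner mitochondrial membrane, complex II feeds electrons from succinate, and complex V, the ATP synthase, lets the protons back to make ATP. Most subunits are encoded in the nucleus and scattered over the chromosomes, while a few core ones of every complex but complex II come from mitochondrial DNA. Nuclear respiratory factor NRF1, the ETS factor GABP and YY1 are textbook regulators of these nuclear genes. Several complex IV subunits also have paralogs used mainly in heart and skeletal muscle, lung or testis.

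Promoter sequence is shown first, as examples of the letters counted further on. The 150 bases just upstream of the RefSeq start (GRCh38.p14, each on the gene's own strand) follow for the best-ranked subunit of each complex, among those with an entry, whose letters of NRF1, ETS or YY1 lay wholly in that stretch. Better-ranked NDUFB4, NDUFA5, NDUFS1 and ATP5MK held such letters farther upstream, and NDUFA8 held them across its start. Capitals mark CCGGAAG, the core that ETS factors such as GABP recognise, or CGCATGCG, the NRF1 palindrome, on either strand.
NDUFA13: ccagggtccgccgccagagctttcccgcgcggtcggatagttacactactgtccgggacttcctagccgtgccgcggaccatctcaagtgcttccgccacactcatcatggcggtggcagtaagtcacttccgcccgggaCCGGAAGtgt
SDHB: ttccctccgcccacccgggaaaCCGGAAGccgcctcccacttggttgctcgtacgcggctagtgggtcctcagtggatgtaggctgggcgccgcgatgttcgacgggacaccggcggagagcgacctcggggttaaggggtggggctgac
UQCRQ: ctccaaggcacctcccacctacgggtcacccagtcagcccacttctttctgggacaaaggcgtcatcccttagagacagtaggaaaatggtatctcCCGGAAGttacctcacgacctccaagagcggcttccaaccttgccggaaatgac
COX8A: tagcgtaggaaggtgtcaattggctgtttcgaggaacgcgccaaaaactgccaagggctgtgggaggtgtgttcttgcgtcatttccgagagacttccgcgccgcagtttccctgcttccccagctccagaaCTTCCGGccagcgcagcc
ATP5F1C: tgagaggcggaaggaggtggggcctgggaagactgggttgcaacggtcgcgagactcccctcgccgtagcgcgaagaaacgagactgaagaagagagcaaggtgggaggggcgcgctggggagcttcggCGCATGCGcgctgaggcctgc
These stretches are chr19:19516075-19516224 on the plus strand for NDUFA13, a membrane-arm accessory subunit of complex I, and chr1:17054033-17054182 on the minus strand for SDHB, the iron-sulfur subunit of complex II. UQCRQ, a small subunit of complex III, lies at chr5:132866492-132866641, COX8A, the ubiquitous subunit 8 of complex IV, at chr11:63974470-63974619, and ATP5F1C, the rotating gamma subunit of complex V, at chr10:7788027-7788176, all on the plus strand. The ETS letters end 4 bases before the NDUFA13 start and 12 bases before that of COX8A, and the NRF1 palindrome of ATP5F1C ends 14 bases before its start.

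A second set shows the promoters at the extremes of the measurements. ATP5PO ranked highest by fold of all members and COX7C highest of complex IV, and capitals mark the consensus of ZNF143, a zinc finger factor of many promoters, which was added to the search after these promoters had been read. COX6B1 ranked lowest of the members with a peak in every library, and its ETS letters are in capitals. COX6A2, a muscle isoform, had no promoter peak and none of these letters.
ATP5PO: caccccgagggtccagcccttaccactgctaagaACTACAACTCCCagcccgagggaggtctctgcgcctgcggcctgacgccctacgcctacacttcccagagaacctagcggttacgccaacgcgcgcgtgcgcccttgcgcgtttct
COX7C: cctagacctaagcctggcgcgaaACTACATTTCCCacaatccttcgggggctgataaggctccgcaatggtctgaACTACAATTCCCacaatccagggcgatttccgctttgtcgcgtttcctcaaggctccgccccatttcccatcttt
COX6B1: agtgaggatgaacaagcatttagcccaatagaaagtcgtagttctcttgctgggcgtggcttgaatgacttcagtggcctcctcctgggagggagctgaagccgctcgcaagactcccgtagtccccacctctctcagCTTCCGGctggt
COX6A2: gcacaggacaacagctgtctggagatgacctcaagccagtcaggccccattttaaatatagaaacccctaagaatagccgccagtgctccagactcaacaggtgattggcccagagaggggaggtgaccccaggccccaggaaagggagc
They are chr21:33915805-33915954 on the minus strand for ATP5PO, chr5:86617791-86617940 on the plus strand for COX7C, chr19:35648173-35648322 on the plus strand for COX6B1 and chr16:31428361-31428510 on the minus strand for COX6A2. COX7C held the consensus at 2 places, ATP5PO at 1. The COX6A2 stretch held 1 CpG, against 15 in ATP5PO, 9 in COX7C and 6 in COX6B1.

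A gene counted as having a promoter peak when a peak came within 1000 bp of the transcription start site (TSS) of one of its basic coding transcripts. All 77 subunits and all 17 assembly factors had a promoter peak in every library. Of the 106 members, 98 (92.5%) had one in all 8 libraries, against 68.0% of protein-coding genes, and 7 had none in any library, against 25.6%. Per library, 99, 98, 99 and 98 members had a peak in E92K replicates 1 to 4 and 99 in each H2A library. The 2 readthrough genes, NDUFC2-KCTD14 and ATP5MF-PTCD1, start at the promoters of NDUFC2 and ATP5MF and share their peaks, so the 98 members stand for 96 peaks. A missing peak means that none was called, not that the site was closed.

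The members without peaks were the isoforms and copies. COX6A2 and COX7A1, the heart and skeletal muscle isoforms, and COX4I2, an isoform best known from lung, had no promoter peak in any library. The same was true of COX7B2 and COX8C, which are known from testis, and of the retrocopies UQCRHL and ATP5MGL. Over the 8 libraries the nearest peak lay 14.2 to 14.3 kb from the COX6A2 TSS, 10.5 kb from that of COX7A1, 22.5 to 22.8 kb from that of COX7B2 and 3.0 to 3.2 kb from that of COX4I2. It lay 8.2 to 8.4 kb from ATP5MGL and 3.5 to 6.2 kb from UQCRHL. For COX8C it was 13.5 to 13.7 kb away in 7 libraries, while H2A replicate 1 had a weak peak 1.6 kb away.

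Both isoforms that did have peaks differed from their ubiquitous partners. NDUFA4L2, a paralog of NDUFA4 known to respond to hypoxia, had a promoter peak in 2 of 4 E92K and 4 of 4 H2A libraries. That split followed the window and not the peak: a peak was called in all 8 libraries, with its near edge 967, 1012, 953 and 1095 bp from the TSS in E92K replicates 1 to 4 and 967, 972, 959 and 992 bp in H2A replicates 1 to 4. With promoters of 2000 bp on each side it counted in all 8. Its fold, read as the deposited enrichment over local background, was 2.45 to 3.34 in the 6 libraries, against 9.26 to 10.92 for NDUFA4, a subunit of complex IV despite its name.

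COX6B2, the testis isoform of subunit 6B, was the exception to the absent isoforms. Its fold was 7.85, 7.18, 8.83 and 8.52 in E92K replicates 1 to 4, and 7.0, 5.79, 6.62 and 7.36 in H2A replicates 1 to 4. The ubiquitous COX6B1, which joins complex IV monomers on the intermembrane side, had folds of 3.94, 4.08, 3.93 and 4.14 in E92K replicates 1 to 4, and 3.61, 3.99, 3.85 and 3.88 in H2A replicates 1 to 4. The isoform was thus higher than its partner in 8 of 8 libraries, the only one of the 7 pairs where that was seen. The COX6B2 summit lay 711.5 bp inside the gene from the main TSS and 532.5 bp from the nearest annotated one (medians over libraries), and the peak touched no other coding promoter. By the significance of the peak (−log10 p) instead of its fold, their mean rank percentiles were close, 25.28 for COX6B2 and 25.80 for COX6B1.

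**Figure D1:**
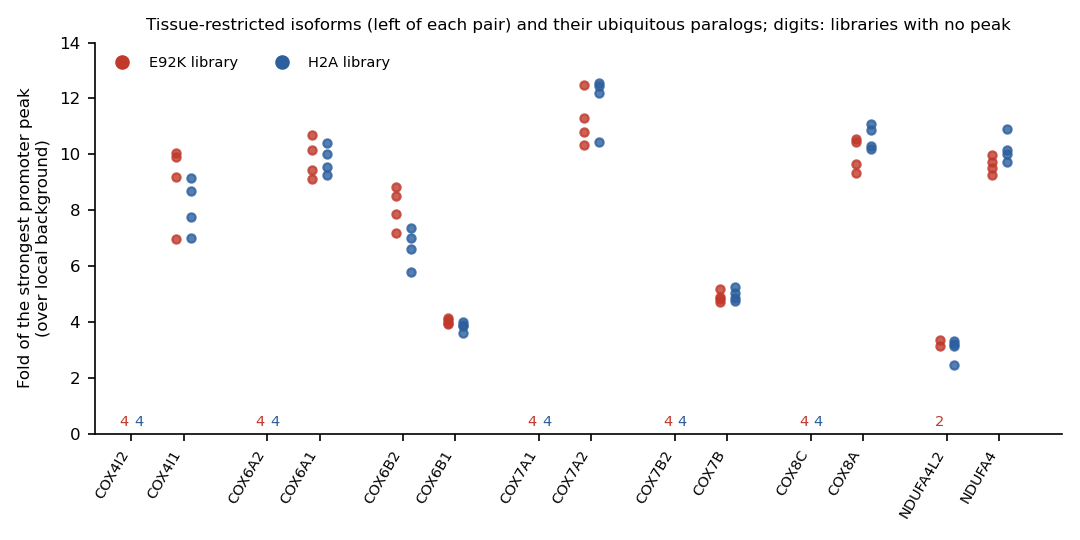
Fold of the strongest promoter peak over local background in each library, E92K in red left of H2A in blue, for 7 tissue-restricted isoforms, each left of its ubiquitous paralog; digits count libraries with no promoter peak. No peak was called at 5 of the 7 isoforms, NDUFA4L2 stayed at 2.45 to 3.34, and COX6B2 lay above COX6B1 in every library.

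Strength was compared within a library as a rank percentile: the folds of the strongest promoter peaks of the 13341 genes with a peak in all 8 libraries were ranked, with 100 for the highest. Genes were placed by their mean over the 8 libraries. The median member stood at 72.7, against 50.4 for all 13341 genes. Of the 98 members, 79 (80.6%) ranked above 50, 16 (16.3%) above 90 and 7 (7.1%) below 25, against 7.6% and 24.0% of all genes above 90 and below 25. The medians were 68.9 for complex I, 87.4 for complex II, 85.6 for complex III, 69.6 for complex IV, 80.0 for complex V and 71.1 for the assembly factors. These are descriptions, since members are not replicates.

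The order of the complexes held for the fold alone. Ranked by −log10 p, the medians were 62.3 for complex I, 68.2 for II, 72.0 for III, 73.5 for IV and 75.6 for V, and 66.9 for all members. Complex II, highest by fold, then came below III, IV and V, while every complex stayed above the 50th percentile.

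Some lists of other genes stood near the members, and others stood lower. All 13 enzymes of the TCA cycle had a peak in every library, with a median percentile of 76.3, as did 76 of 78 mitochondrial ribosomal protein genes (75.9) and 42 of 42 assembly factors with other symbols (75.3). The exceptions were MRPL23, with no peak, and MRPL35, with a peak in 0 of 4 E92K and 1 of 4 H2A libraries. Of the 86 cytosolic ribosomal protein genes 83 had a peak in all 8, with a median of 63.7. RPL10L had one in 1 E92K and 0 H2A libraries, and RPL3L and RPSA2 had none. All 22 nuclear regulators of respiratory genes had one in every library, with a median of 49.5. Among these, NRF1 stood at 18.83, YY1 at 12.41 and GABPA at 51.5, and TFAM, which packages mitochondrial DNA, at 84.72. Another 4 genes linked to the chain or the ATP synthase have symbols outside the rule. Among them, cytochrome c (CYCS) stood at 80.08, the ATPase inhibitor ATP5IF1 at 69.08, DMAC2L at 72.83 and CYC1, the cytochrome c1 of complex III, at 29.47.

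**Figure D2:**
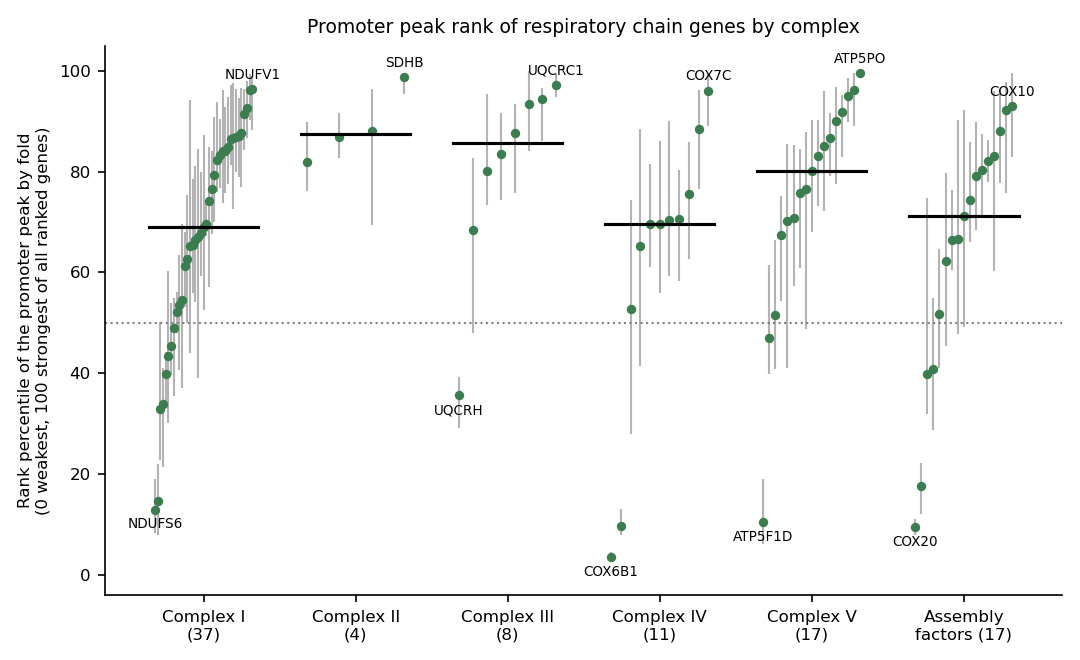
Mean rank percentile of the strongest promoter peak by fold over 8 libraries, a point per gene with a grey line over the range of the 8 libraries, for complexes I to V and the assembly factors; black bars are class medians and the dotted line is the middle of all 13341 ranked genes. Medians run from 68.9 for complex I to 87.4 for complex II, and ATP5PO at 99.48 and COX6B1 at 3.54 are the extremes.

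Within complex I, NDUFV1 and NDUFB4 ranked highest by fold, and stood at 69.39 and 88.44 by −log10 p. NDUFV1, the flavoprotein that takes electrons from NADH, had percentiles of 99.0, 98.7, 94.8 and 88.1 in E92K replicates 1 to 4, and 98.8, 95.1, 97.1 and 98.7 in H2A replicates 1 to 4. NDUFB4, an accessory subunit of the membrane arm, averaged 94.50 ± 2.88 in E92K and 97.95 ± 1.84 in H2A libraries (SD, n = 4 each), and the groups overlapped for both genes. At the other end, NDUFS6, an accessory subunit at the iron-sulfur arm, averaged 11.85 ± 3.68 in E92K and 14.06 ± 3.99 in H2A libraries, and NDUFB10, of the membrane arm, 11.26 ± 3.0 in E92K and 18.07 ± 5.31 in H2A (SD, n = 4 each). By −log10 p NDUFS6 ranked at 16.95 and NDUFB10 at 45.15. NDUFS6 was also the widest of the complex, at a mean of 2382 bp. Its TSS lies 41 bp from that of MRPL36 on the opposite strand, and its summit lay 1449.5 bp away, outside the promoter window. NDUFB7 had the narrowest peak of complex I, at a mean of 499.5 bp, with a middling percentile of 62.59.

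All 4 subunits of complex II ranked above 80. SDHB had percentiles of 99.1, 99.6, 99.2 and 98.9 in E92K replicates 1 to 4, and 99.3, 99.2, 95.4 and 99.3 in H2A replicates 1 to 4. A single library, H2A replicate 3, stood below the other 7. SDHD and SDHC, the membrane anchors, averaged 85.47 ± 12.28 and 88.12 ± 3.05 in E92K libraries, against 90.52 ± 4.2 and 85.68 ± 2.5 in H2A libraries, and SDHA, the flavoprotein, 83.13 ± 5.75 in E92K and 80.68 ± 3.23 in H2A (SD, n = 4 each). SDHA had the widest of the 4 peaks, at 1311 bp, and SDHB the narrowest, at 872 bp. By −log10 p they ranked at 77.07 for SDHB, 69.63 for SDHC, 66.83 for SDHA and 58.49 for SDHD.

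By fold, complex III was led by UQCRC1, a core subunit, and UQCRB, a small subunit near the ubiquinone site. UQCRC1 had percentiles of 97.2, 98.2, 95.6 and 99.2 in E92K replicates 1 to 4, and 97.4, 94.7, 96.7 and 98.8 in H2A replicates 1 to 4. UQCRB averaged 93.30 ± 4.88 in E92K and 95.45 ± 1.54 in H2A libraries, where E92K replicate 3 alone was low at 86.0, and it had the widest peak of the complex at 1255 bp. UQCRFS1, the Rieske iron-sulfur protein, had the narrowest at 739.5 bp and ranked at 93.38 by fold but 43.47 by −log10 p. UQCRH, the hinge protein next to cytochrome c1, was lowest by fold, with 34.56 ± 3.79 in E92K and 36.60 ± 2.39 in H2A libraries. By −log10 p UQCRH ranked at 65.67. UQCR11, an accessory subunit, averaged 62.05 ± 11.52 in E92K and 74.85 ± 5.34 in H2A libraries (SD, n = 4 each).

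Complex IV had the widest range of mean percentiles, 3.54 to 96.05, although its quartiles, 58.9 and 73.1, lay closer together than those of complex I, 53.5 and 84.8. COX7C, a small subunit, had percentiles of 97.4, 96.1, 98.7 and 89.1 in E92K replicates 1 to 4, and 96.3, 99.3, 97.7 and 93.8 in H2A replicates 1 to 4, and COX7A2, the ubiquitous partner of COX7A1, averaged 85.50 ± 7.50 in E92K and 91.45 ± 6.92 in H2A libraries (SD, n = 4 each). COX6B1 had percentiles of 3.3, 4.0, 3.6 and 4.6 in E92K replicates 1 to 4, and 2.9, 3.9, 3.2 and 2.9 in H2A replicates 1 to 4, below 5 in every library, and COX7B, another small subunit, averaged 9.15 ± 1.75 in E92K and 10.30 ± 2.22 in H2A libraries (SD, n = 4 each). Their peaks were also narrow, with means of 422 bp for COX6B1 and 549 bp for COX7B. COX4I1, the regulatory subunit 4, had the widest of the complex at 1445 bp and varied strongly between libraries of one group, with 58.36 ± 19.99 in E92K and 47.00 ± 14.95 in H2A (SD, n = 4 each).

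In complex V, ATP5PO, the OSCP subunit that ties the catalytic head to the stalk, had percentiles of 99.8, 99.7, 99.0 and 99.3 in E92K replicates 1 to 4, and 99.6, 99.7, 99.7 and 99.1 in H2A replicates 1 to 4. Its lowest library still ranked at 99.0, and by −log10 p it kept a mean of 96.13. ATP5MJ, a small membrane subunit, averaged 97.33 ± 1.92 in E92K and 95.12 ± 4.47 in H2A libraries. ATP5F1D, the delta subunit of the rotor, averaged 9.21 ± 2.10 in E92K and 11.64 ± 5.55 in H2A libraries, and its peak was the narrowest of all members at 394 bp. ATP5MG, a membrane subunit of the dimer interface, averaged 45.97 ± 7.63 in E92K and 48.07 ± 9.07 in H2A libraries (SD, n = 4 each). ATP5PF, the coupling factor F6, had the widest peak of the complex at 1538 bp, and its TSS lies 68 bp from that of GABPA, the gene of the ETS factor named above, so both had the same peak and percentile.

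Among assembly factors, COX10 and COX16 ranked highest by fold, at 92.95 and 92.11, but stood at 49.54 and 52.59 by −log10 p. COX10, which makes the heme O precursor of complex IV's heme A, averaged 90.86 ± 6.35 in E92K and 95.05 ± 3.15 in H2A libraries, and COX16, a factor of subunit 2 assembly, 87.36 ± 8.39 in E92K and 96.86 ± 1.06 in H2A (SD, n = 4 each). COX20, a chaperone of subunit 2, had percentiles of 10.0, 10.8, 8.3 and 11 in E92K replicates 1 to 4, and 8.5, 10.5, 7.9 and 8.9 in H2A replicates 1 to 4 with the widest peak of all members, at 2423 bp. COX20 was the member for which fold and significance parted furthest: it ranked at 9.49 by fold and 79.19 by −log10 p. NDUFAF3, a complex I assembly factor, averaged 17.41 ± 3.44 in E92K and 17.72 ± 4.2 in H2A libraries (SD, n = 4 each), and ranked at 72.99 by −log10 p. NDUFAF8, which works with NDUFAF5, had the narrowest peak of this class at 821 bp.

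Peak width did not set the members apart as a group. The median width was 1085 bp, against 1106 bp for all 13341 genes. Over all genes width peaked in the middle of the fold ranks: its median was 903.8 bp between 0 and 10, 1276.0 bp between 30 and 40 and 897.2 bp between 90 and 100. The 7 members ranked below 25 differed in width: COX20 (2423 bp) and NDUFS6 (2382 bp) were wide, NDUFAF3 (1204 bp) and NDUFB10 (840 bp) lay between, and ATP5F1D (394 bp), COX6B1 (422 bp) and COX7B (549 bp) were narrow. By −log10 p, NDUFS6 at 16.95, ATP5F1D at 18.00 and COX6B1 at 25.80 remained in the lower part of the ranking, and COX20 did not.

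**Figure D3:**
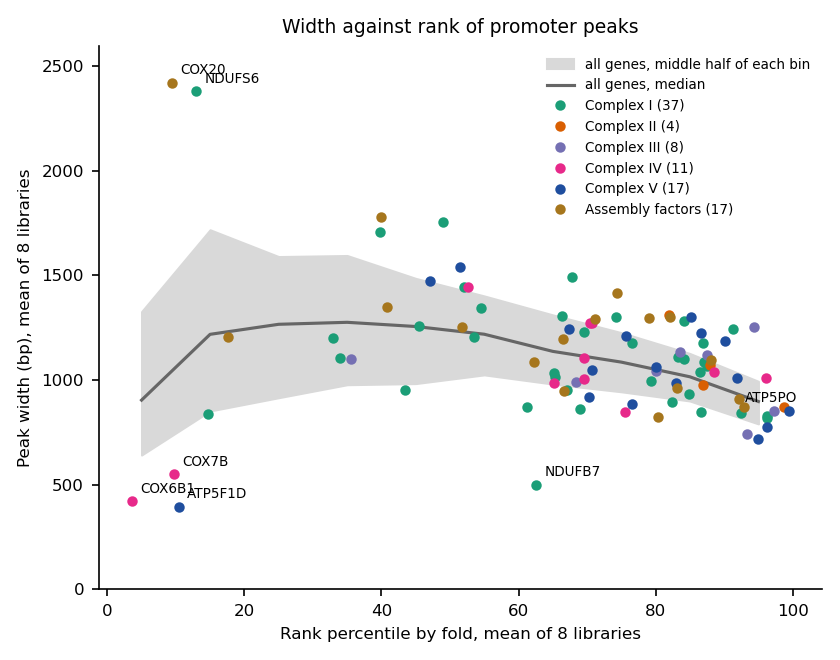
Mean width of the strongest promoter peak in bp against its mean rank percentile by fold, over 8 libraries, for the 77 subunits and 17 assembly factors, coloured by complex, with the median (line) and quartiles (grey) of all 13341 genes in bands of 10 percentiles. The 7 members ranked below 25 include narrow peaks (ATP5F1D, COX6B1, COX7B), wide ones (COX20, NDUFS6) and some between (NDUFB10 at 840 bp, NDUFAF3 at 1204 bp).

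All peaks compared here, of members and of all genes, were taken within 1000 bp of a TSS. The place of the summit and the starts of neighbouring genes were not used to choose them. The summit lay within 250 bp of an own TSS in 92.9% of the 98 members, against 82% of all genes, and upstream of the main TSS in 85.7%, against 68.4%. Another coding gene started on the opposite strand, within 1000 bp upstream or overlapping by up to 500 bp, at 34 members (34.7%), against 16.2% of all genes. The 4 examples that follow were chosen after their values were seen. NDUFB5 faced the mitochondrial ribosomal gene MRPL47 at 145 bp, SDHD the import factor gene TIMM8B at 75 bp, NDUFS1 the translation elongation factor gene EEF1B2 at 141 bp, and NDUFA7 the ribosomal gene RPS28 at 121 bp. The strongest peak touched the promoter of at least 1 other coding gene in 42 members (42.9%), against 21.5%, so for these the peak cannot be assigned to 1 gene. Related lists differed in these shares. An opposite-strand start was found at 36.8% of mitochondrial ribosomal protein genes and 40.5% of the other assembly factors. Their summits lay within 250 bp in 98.7% and 97.6% and upstream in 72.4% and 71.4%, and peaks were shared in 40.8% and 47.6%. For TCA cycle enzymes, nuclear regulators and cytosolic ribosomal protein genes, opposite-strand starts were found at 23.1%, 18.2% and 19.3%. Their peaks were shared in 30.8%, 22.7% and 26.5%, and summits lay upstream in 53.8%, 72.7% and 90.4%. For NDUFAF6 and ATP5F1A the strongest peak lay at an alternative TSS, 129.4 kb and 6.1 kb from the main one.

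The letters shown at the outset recurred among the members. RefSeq entries of 300 bases, from 250 before to 50 after the start, matched 85 of 106 members and 15275 protein-coding genes, and 82 of these members had a peak in every library. They were compared with the 10773 genes that had both an entry and such peaks, with exact letters searched on both strands. CGCATGCG (NRF1) was held by 15.9% of members, against 3.9% of genes. CCGGAAG (ETS) was held by 31.7%, against 19.2%, and AAGATGGC (YY1) by 17.1%, against 5.48%. At least 1 of these 3 was held by 53.7% of members and 26.1% of genes. Within 150 bp of the strongest summit such letters were held by 52.4% of members and 25.6% of genes. By complex, I to V in turn, 32, 3, 7, 9 and 13 subunit promoters were searched. ETS letters were held by 5 (15.6%), 2 (66.7%), 3 (42.9%), 5 (55.6%) and 6 (46.2%) of them. The complex I share lay near the 19.2% of genes, and those of the other complexes rest on few promoters. NRF1 letters were held by 15.6%, 33.3%, 0.0%, 11.1% and 23.1%, and YY1 letters by 21.9%, 33.3%, 14.3%, 0.0% and 23.1%.

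Other letters were searched in the same way. GGGCGG (SP) was held by 64.6% of members, against 74.1% of genes, when both had peaks in all 8 libraries, but by 62.4% of the 85 members and 61.8% of the 15275 genes with an entry. CCAAT (NFY) was held by 32.9% of members with such peaks, against 37.0% of genes, and TATAAA by 7.32%, against 5.12%. TGACGTCA (CRE) was held by 6.1%, against 3.46%, and CAAGGTCA (ERR) by 3 members, 3.66%, against 0.473%. The ZNF143 consensus was held by 5 members, 6.1%, against 4.14%: ATP5PO, COX7C, COX7B, NDUFB10 and UQCR10. Each motif was counted on its own, and overlapping matches of different motifs were all kept. The median CpG ratio (observed over expected) was 0.85 in both. It was 0.38 in the 3 members with an entry and no peak in all 8 libraries.

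The letters stood at different places. All 13 members with NRF1 letters had them begin before the start, as did 22 of 26 with ETS letters. Of the 14 with YY1 letters, 12 had them only in the stretch after the start. Rank was set beside the letters as a description. Among members the median percentile was 76.1 in the 44 with NRF1, ETS or YY1 letters and 70.8 in the 38 without, while over all genes it was 67.9 with and 46.0 without. A match is a description of sequence and not of binding.

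**Figure D4:**
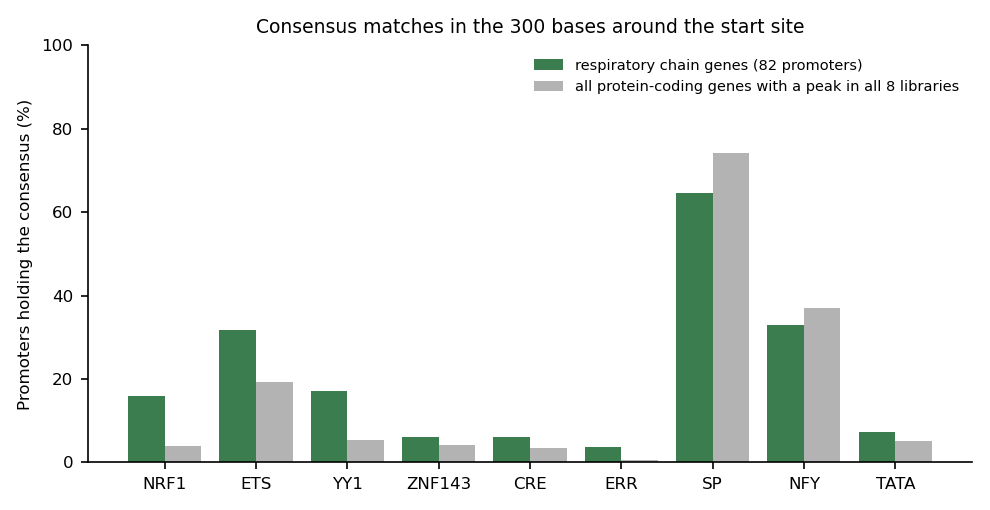
Share of RefSeq promoters of 300 bases that hold each motif, in percent, for the 82 members beside the 10773 protein-coding genes with a peak in all 8 libraries. NRF1, ETS and YY1 letters are held by 15.9%, 31.7% and 17.1% of members, against 3.9%, 19.2% and 5.48% of genes.

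The comparison of E92K with H2A libraries asks whether the mutant histone went with a change at these promoters. No member had its peak in 4 libraries of a single group and 0 libraries of the second, against 6 of 19609 genes (0.0306%). Fisher's exact test, whose smallest two-sided p with 4 against 4 is 0.0286, reached that p in those 6 genes and called 0 genes after Benjamini-Hochberg adjustment (0.0%). Rank percentiles were tested with limma over all 13341 genes. It called 0 genes in either direction at an adjusted p of 0.05 (0.0%). At an unadjusted p of 0.05 it called 1033 genes (7.74%) and 6 of 98 members (6.12%), a share near the background. That member count was 3 without H2A replicate 1, 2 without H2A replicate 3 and 2 with the percentile taken over all peaks, where 1072 genes were called. The median member differed by −0.18 percentile points (E92K minus H2A), with 47 of 98 positive (48.0%, against 49.2% of all genes). The 95% interval of a member's difference reached 9.99 points to each side at the median, and 4.37 to 24.6 over the members. These intervals are unadjusted. With 4 libraries a group, differences within them were not told apart from 0, and larger ones could still miss the adjusted threshold.

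The 3 members with the smallest p in rank were COX6B2, NDUFV3 and NDUFB5, and none passed the adjustment. COX6B2 had percentiles of 42.0, 33.7, 56.3 and 48.3 in E92K replicates 1 to 4, and 34.6, 18.6, 26.0 and 32.7 in H2A replicates 1 to 4. It differed by 17.13 ± 5.43 points (SE, limma adjusted p = 0.546), and the lowest E92K library lay below the highest H2A library. NDUFV3, an accessory subunit beside NDUFV1, had percentiles of 88.6, 87.5, 86.3 and 92.8 in E92K replicates 1 to 4, and 77.2, 87.2, 77.5 and 75.8 in H2A replicates 1 to 4, a difference of 9.40 ± 3.15 (SE, limma adjusted p = 0.559). H2A replicate 2 alone stood among the E92K values. NDUFB5, a membrane-arm subunit, had percentiles of 81.1, 88.7, 79.9 and 81.6 in E92K replicates 1 to 4, and 88.6, 84.5, 96.4 and 94.3 in H2A replicates 1 to 4, a difference of −8.13 ± 3.43 (SE, limma adjusted p = 0.644). The groups overlapped in all 3. Their sizes depend on the ranking: by −log10 p the difference was 9.16 for COX6B2, 5.93 for NDUFV3 and −11.18 for NDUFB5, and over all peaks 11.41, 3.13 and −2.79.

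In 1 member, NDUFA6, an accessory subunit of complex I, every E92K library ranked below every H2A library, as 2.27% of all genes did. Its percentiles were 90.5, 84.2, 91.0 and 90.6 in E92K replicates 1 to 4, and 96.4, 92.1, 93.1 and 92.8 in H2A replicates 1 to 4, a difference of −4.51 ± 2.48 (SE, limma adjusted p = 0.743). No member had all E92K libraries above all H2A libraries, against 1.91% of genes.

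Widths were compared on the log2 scale after subtracting each library's median over the 13341 genes. limma called 2 genes wider (0.015%) and 2 narrower (0.015%) in E92K, none of them a member, and at an unadjusted p of 0.05 it called 688 genes (5.16%) and 5 of 98 members (5.10%). That member count was 10 without centring, where 773 genes were called, 3 without E92K replicate 2, 3 without E92K replicate 3 and 2 without H2A replicate 1. The median member differed by −0.006, with 47 of 98 positive, and the 95% interval reached 0.17 to each side at the median. NDUFS8, an iron-sulfur subunit of complex I, had the smallest p. Its peaks measured 1004, 1078, 1019 and 1060 bp in E92K replicates 1 to 4, and 1198, 1184, 1171 and 1169 bp in H2A replicates 1 to 4. Every E92K peak was below every H2A peak, with a centred difference of −0.15 ± 0.05 (SE, limma adjusted p = 0.853).

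COX19, a copper-handling factor of complex IV assembly, had widths of 1279, 1597, 1164 and 1459 bp in E92K replicates 1 to 4, and 1121, 1180, 1151 and 1095 bp in H2A replicates 1 to 4, and a difference of 0.30 ± 0.10 (SE, limma adjusted p = 0.878). NDUFV3, also among the 3 smallest p-values in rank, had widths of 1190, 1151, 1024 and 1270 bp in E92K replicates 1 to 4, and 1556, 1261, 1392 and 1406 bp in H2A replicates 1 to 4, and a difference of −0.25 ± 0.09 (SE, limma adjusted p = 0.937). The groups overlapped in COX19 and NDUFV3 and not in NDUFS8. By centred width, 1 member (NDUFS8) was narrower in all E92K libraries, as were 1.39% of genes, and 2 (NDUFA13 and UQCR11) were wider, as were 1.7%.

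**Figure D5:**
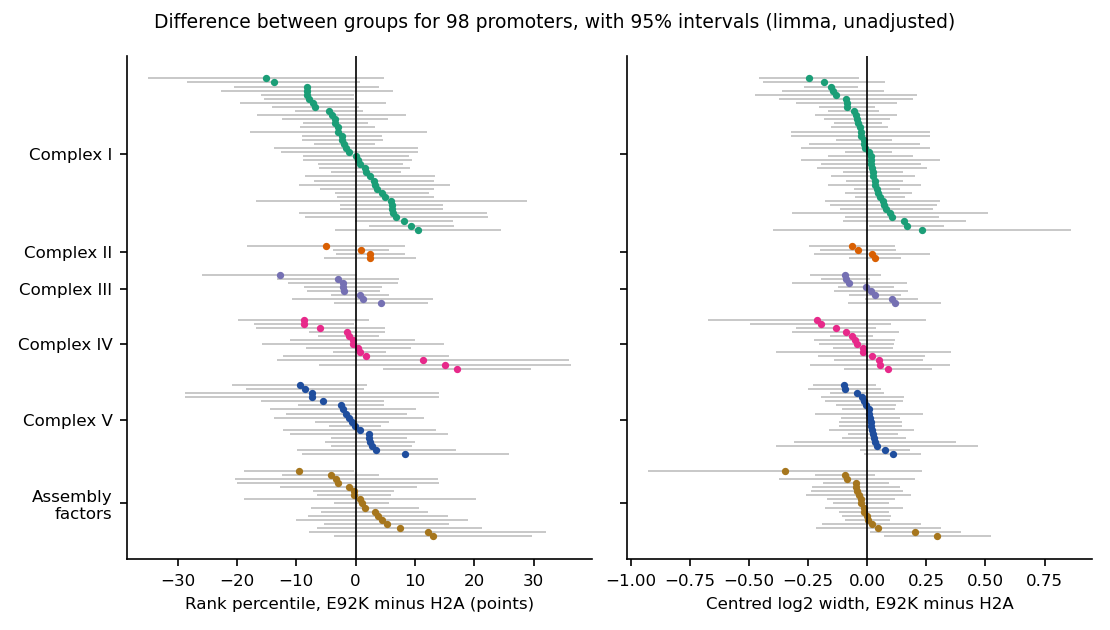
Difference E92K minus H2A in rank percentile and in centred log2 width of the strongest promoter peak for the 98 members with a peak in every library, by complex (isoforms and readthrough genes with theirs), as points with 95% intervals from limma. Differences run from −15.05 to 17.13 percentile points and from −0.35 to 0.30 in log2 width, and none passed the adjusted test.

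Complex medians per library overlapped between the groups. For complex I they were 67.7 to 72.3 in E92K and 68.1 to 75.9 in H2A libraries, for complex II 85.7 to 91.7 in E92K and 83.6 to 90.5 in H2A, and for complex III 80.6 to 90.8 in E92K and 84.7 to 89.7 in H2A. For complex IV they were 64.5 to 74.4 in E92K and 67.4 to 72.8 in H2A libraries, and for complex V 77.2 to 83.4 in E92K and 76.3 to 86.0 in H2A. No complex of the rule had its E92K libraries all on one side of its H2A libraries. The 4 linked genes outside the rule did, with library medians of 63.7 to 66.4 in E92K and 73.0 to 76.6 in H2A libraries. All 4 differences were negative, while 49.2% of all genes had a positive one. In 1 gene, ATP5IF1, every E92K library ranked below every H2A library, as in 2.27% of all genes. It averaged 63.06 ± 3.19 in E92K and 75.11 ± 4.46 in H2A libraries (SD, n = 4 each, limma adjusted p = 0.483). These 4 genes were not tested as a set.

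The lists behind these values held 55527 to 61850 peaks in E92K and 57439 to 62044 in H2A libraries, and 13775 to 13975 coding promoters had a peak in E92K, against 13881 to 14013 in H2A libraries. Read totals were not analysed here, so depth is unknown. Of marker genes, 7 of 7 embryonic kidney and neuronal-like ones had a promoter peak in all 8 libraries, against 68.0% of all protein-coding genes. Such peaks were found at 0 of 4 hematopoietic and 0 of 3 endothelial genes. They were also found at 1 of 3 hepatocyte genes (TTR) and 1 of 5 heart and skeletal muscle genes (TNNT2).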

How the data were processed

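Accessible chromatin was measured by ATAC-seq in 8 HEK293T libraries, grouped by their titles into 4 E92K and 4 H2A. The authors deposited 1 peak list per library, in narrowPeak layout with no header, aligned to hg38 per the series' design text. The sources used here name no aligner or peak caller and do not tell how duplicates or multiply mapping reads were handled, and each can change widths and folds. Per the deposited values, the score column is a whole number that follows 10 times the −log10 q, the fold column is a ratio of a summit to its local background, and p-values and q-values stand as −log10, with no q-value above 0.01. Folds are the authors' and were used only within a list.

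Repeated intervals were read as 1 peak with several summits. A peak counted for a gene if it covered 1 bp or more of the 1000 bp on either side of the TSS of a basic coding transcript (GENCODE 44), and the one with the largest −log10 p stood for the gene. Fold percentiles and log2 widths centred on each library's median were tested, E92K minus H2A, with limma 3.58.1 (R 4.3.3) and Benjamini-Hochberg adjustment over 13341 genes, after tests on simulated data; presence was tested with Fisher's exact test (scipy 1.17.1). Replicate numbers were not treated as pairs. Alternatives were promoter windows of 500 and 2000 bp, a q-value of 1e-05, summits inside the promoter, the canonical transcript, lists cut to 55527 peaks, other rankings and widths, a replicate block and leaving out each library. Promoter sequences are RefSeq's (GRCh38.p14), and all 85 member entries equalled hg38. Genes were named if they had a peak in fewer than 8 libraries, were an isoform, retrocopy or readthrough gene, were the 2 highest, 2 lowest, widest or narrowest of a class, or were among the 3 smallest p-values, besides those said to be chosen otherwise. NDUFA6, NDUFA13, ATP5F1C, COX8A, UQCRQ, NDUFA7, NDUFS1, ATP5F1A and NDUFAF6 were added for their sequence, neighbours or non-overlapping groups. Members, lists, motifs and rules were chosen with earlier results of these data known.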

Additional observations from a re-analysis of the deposited data

Results flagged for a closer look

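In groups of 4 libraries, a value was listed where the highest or lowest library stood apart from the other 3 by more than Dixon's critical value. This happened in 9 of 100 groups examined. The chance rate of about 1 in 20 assumes independent, normally spread values. Percentiles close to 100 and class medians built from the same members do not meet that, so the count cannot be weighed against it. Rank percentiles of single promoters did so in 6 cases. ATP5MG stood at 61.6 in H2A replicate 1, against 42.7 to 45.3 in the other H2A libraries. COX7A2 stood at 81.2 in H2A replicate 1, against 93.7 to 96.2, and NDUFV3 at 87.2 in H2A replicate 2, against 75.8 to 77.5. SDHB stood at 95.4 in H2A replicate 3, against 99.2 to 99.3, and ATP5PO at 99.1 in H2A replicate 4, against 99.6 to 99.7. UQCRB stood at 86.0 in E92K replicate 3, against 94.9 to 96.3 in the other E92K libraries. Medians of a class did so in the other 3 cases. The complex II median was 85.7 in E92K replicate 1, against 90.7 to 91.7. The complex V median was 76.3 in H2A replicate 4, against 84.5 to 86.0, and that of the assembly factors 65.3 in H2A replicate 1, against 71.3 to 72.3. Of the 9, H2A replicate 1 accounted for 3.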

How the results depend on the processing

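Of 324 values recomputed under alternative settings for 26 results, 305 were labelled unchanged and 0 reversed. Differences of single members with this label kept their sign and their side of the threshold. Medians with it stayed within the SD over libraries of the main median, and NRF1, ETS and YY1 shares within their confidence intervals. Counts needed only to stay near the main count: 9 genes with a peak in each library of a single group alone, against 6, were labelled unchanged. A count has no sign to reverse, and many counts were 0 under both settings. The number of member promoters with a peak in every library was 98 with each library left out in turn, and members past the adjusted threshold stayed at 0 in rank and in width under every setting run. The count of all genes that had a peak in each library of a single group alone, 6 with all libraries, was 9 to 20 with a library left out, where 3 libraries suffice. Rank calls over all genes were 0 with all libraries and 0 to 5 with one left out, the 5 without E92K replicate 1. Width calls, 4 with all libraries, were 3 to 7 with one left out, the 7 without E92K replicate 3, and 0 by covered base pairs of the promoter. Same-numbered replicates did not deviate together (correlations from −0.216 to 0.02), which does not tell whether they were prepared together. With a replicate block, width calls were 0 (637 at an unadjusted limma p of 0.05) and rank calls 0 (957). The median percentile of all members was 71.1 with canonical transcripts, 66.9 ranked by −log10 p, and 72.1 to 74.4 with a library left out. Ranked by −log10 p it was 62.3 for complex I, 68.2 for complex II, 72.0 for complex III, 73.5 for complex IV and 75.6 for complex V. The cause of these shifts was not tested. Depth is unknown, so a missing peak limits what can be said of a weak site.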

Other observations

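The cytosolic ribosomal protein genes, used above only for scale, separated the groups by their medians. The library medians of their rank percentiles did not overlap, at 57.0 to 58.9 in E92K and 61.2 to 67.0 in H2A libraries. The 4 linked genes outside the rule, given above, separated likewise. Of the 83 ranked genes, 13 (15.66%) had every E92K library below every H2A library, against 2.27% of all genes, and 1 (RPL34) had every E92K library above. Examples were RPL6, with 55.32 ± 10.61 in E92K and 79.58 ± 5.48 in H2A libraries, and RPS19, with 74.62 ± 9.27 in E92K and 93.40 ± 1.98 in H2A libraries (SD, n = 4 each; limma adjusted p = 0.463 and 0.483). None passed the adjustment, the pattern was seen after the values were computed, and the list was not tested as a set. Among mitochondrial ribosomal protein genes 0 of 76 separated in either direction, and among the respiratory members 1 of 98 did.

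Ranking by −log10 p put other members at the top than ranking by fold. COX14, a complex IV assembly factor, stood at 99.34 by −log10 p and 66.45 by fold, and NDUFB2, an accessory subunit of complex I, at 99.29 and 69.51. NDUFS4, another accessory subunit, stood at 31.42 by −log10 p and 82.36 by fold, and NDUFA9 at 30.31 and 79.40. These 4 were chosen after their values were seen, and the cause of the differences was not tested.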
